A study of Sus scrofa with 12 samples.

Results

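Muscle taken 24 h after death was set against muscle of the same pigs taken 20 min after death, with every non-control probe set of the array. The 6 arrays were chosen by the time in their titles, 3 at 24 h and 3 at 20 min of 12 arrays in the series, and they were paired by the pig number in the titles. All 23999 non-control probe sets of 24123 entered the comparison. The 24 h group held from each of 3 pigs 1 portion of a ham muscle, the semimembranosus, after the carcass had gone through the cold chain to 4 °C. The 20 min group held 1 portion of the same muscle of each of those pigs. Both groups share everything else the labels give: female commercial hybrids of about 160 kg from 1 farm, stunned with 87% CO2 at 1 abattoir, left leg, portions of 3 to 5 g, 1 array per portion. The other 6 arrays, at 2 h and 6 h, served to estimate the spread and to place a difference within the day. The groups are limited as a model by the number of pigs, by the lack of living muscle, and by the earliest time, which already follows stunning and slaughter.

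A muscle does not stop at death. The fibres go on breaking down glycogen and phosphocreatine until ATP runs out and rigor sets in, while the carcass cools. RNA synthesis needs nucleotides and ATP, so transcripts made early can be replaced only for a while, and each mRNA is then lost at its own rate. Messages of immediate early genes turn over quickly, and those of contractile proteins are long-lived. Skeletal muscle also holds resident macrophages, fibroblasts, fat cells and vessel cells, and a bulk extract mixes their RNA with that of the fibres.

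The label of skeletal muscle held on every array. Of 10 fibre markers 7 were on the array, and their mean log2 level was 14.15 to 14.20 at 24 h and 14.16 to 14.19 at 20 min. After RMA, which gives the arrays a common distribution, array medians lay between 5.89 and 5.93, and the arrays correlated in pairs with r between 0.986 and 0.997. The 20 min array of pig 3 stood furthest from the rest, with a median r of 0.989. As a measure of RNA degradation, the signal of the 3′ EF1A control exceeded that of the 5′ one by 0.86, 0.62 and 0.70 at 24 h in pigs 1, 2 and 3, against 0.48, 0.63 and 0.23 at 20 min. For actin the same difference was 2.46, 2.00 and 2.28 at 24 h and 2.37, 2.23 and 2.33 at 20 min, and for GAPDH -0.17, -0.21 and -0.16 at 24 h and -0.23, -0.22 and -0.20 at 20 min. EF1A was thus higher at 24 h in pigs 1 and 3, actin in pig 1 alone, and GAPDH differed little. The part of RNA quality in the results below was not tested.

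Of 23999 probe sets 1 passed at 24 h against 20 min (0.00417%), the one annotated to OCA2, in limma's test with pig as a block and an adjusted p under 0.05. The next smallest adjusted p was 0.157. At unadjusted p under 0.05, 1600 probe sets were lower at 24 h (6.67%) and 1538 higher (6.41%). Of the pigs, the third weighed most in these counts. They were 897 lower and 784 higher with pig 3 left out, 1044 and 888 with only its 20 min array left out, and 926 and 895 with only its 24 h array left out. The median log2 change was 0.01 over all probe sets, and values from -0.28 to 0.25 spanned the range from the 5th to the 95th percentile.

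**Figure D1:**
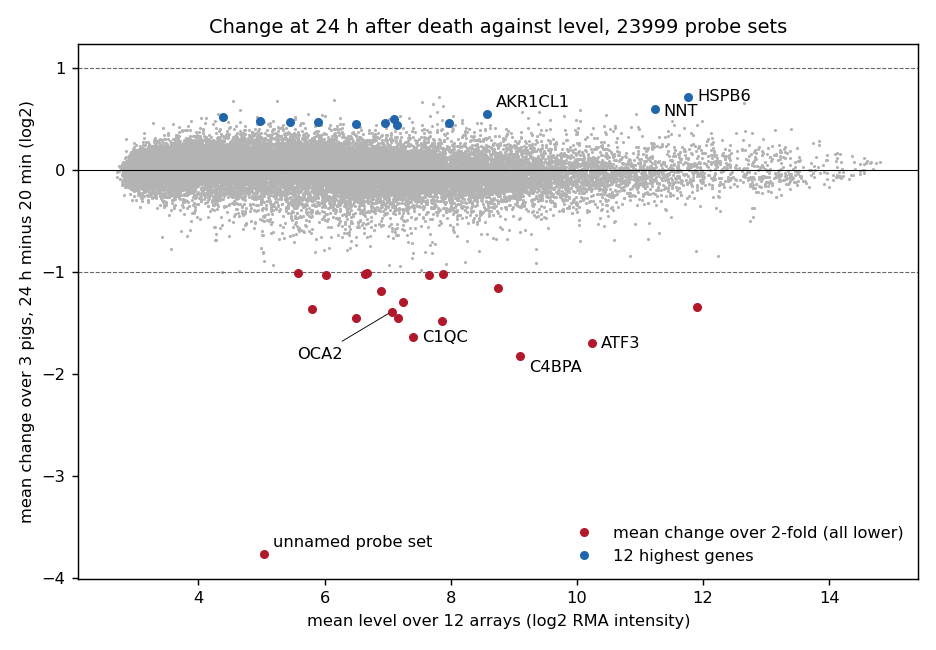
Mean log2 change over 3 pigs, 24 h minus 20 min, on the y axis against the mean log2 level over 12 arrays on the x axis, for 23999 probe sets (grey points; dashed lines mark 2-fold). The 19 probe sets beyond 2-fold (red) all lie below 0, down to -3.77 for a probe set without a gene name, and the 12 highest genes (blue) reach 0.71 for HSPB6.

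The largest differences ran downward. Past 2-fold in the mean, 19 probe sets were lower at 24 h (0.0792%) and 0 were higher (0%). Of the 19, 16 carried a symbol, 18 were lower in 3 of 3 pigs, and at 11 the 3 arrays of 24 h all lay below the 3 of 20 min. With the brightest probe set standing for each of 6765 genes, the 12 lowest genes with 1 sign in all pigs ran from -1.82 for C4BPA to -1.01 for C1QA. They fall into macrophage and complement genes (C1QC, C1QA, CD163, VSIG4, C4BPA and the chemokine CCL24) and a mixed remainder. The remainder held the stress-response gene ATF3, the stretch gene ANKRD1, the growth inhibitor MSTN, and OCA2, TIAM2 and LOC100624077. The 12 highest ran from 0.71 for HSPB6 to 0.45 for PTPMT1, and 3 of them, NNT, ME3 and PTPMT1, encode mitochondrial enzymes. These 24 genes and the 19 probe sets were picked by their change, so that their sizes and the separation of their groups are a description.

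**Figure D2:**
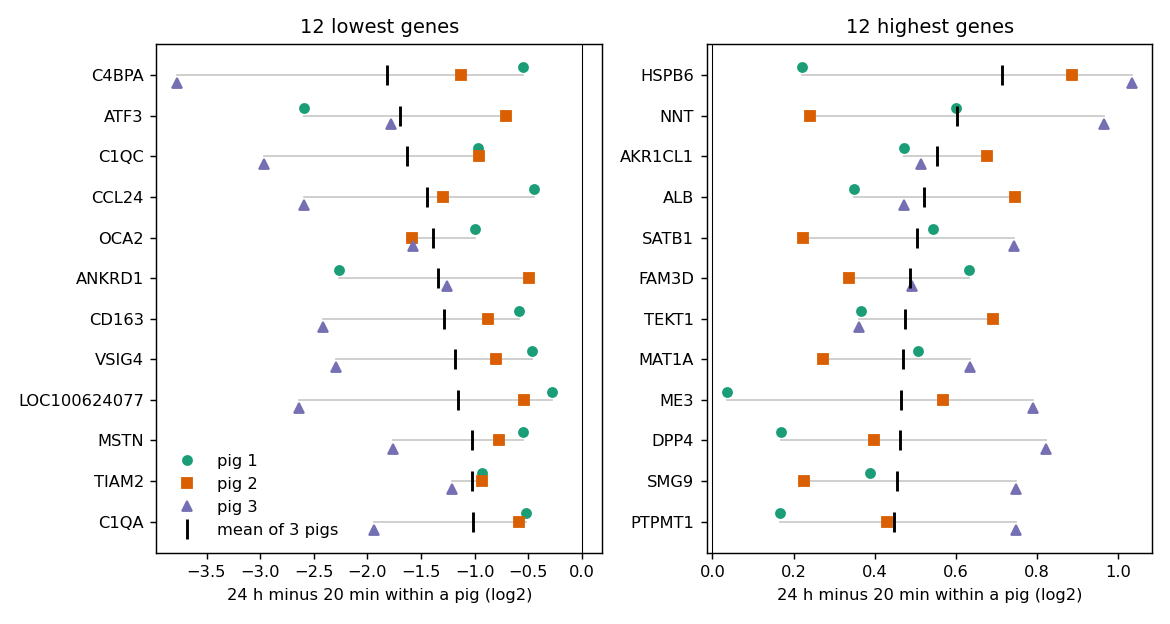
Log2 change at 24 h minus 20 min in each pig (symbols, shifted up and down for legibility) and its mean (bars) for the 12 lowest genes on the left and the 12 highest on the right. Pig 3 has the lowest value for C4BPA, C1QC, CD163 and VSIG4, pig 1 for ATF3 and ANKRD1, and OCA2 and AKR1CL1 have narrow ranges; the axes of the panels differ.

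OCA2 is known from pigment cells, where its protein sits in the melanosome membrane. Its name rests on a 2016 annotation, which was not checked against the probe sequences. The log2 level was 6.12, 7.16 and 6.07 at 24 h in pigs 1, 2 and 3, against 7.12, 8.75 and 7.65 at 20 min. Each pig was lower at 24 h, but the groups overlapped because pig 2 lay above the others at both times. OCA2 fell by 1.39 on the log2 scale (SE 0.126, 95% interval -1.66 to -1.11, limma adjusted p = 0.00399), which is 2.62-fold lower. Its means over the 4 times were 7.84, 7.04, 6.92 and 6.45, so that -0.92 of the difference stood at 6 h and -0.47 came after. The call was lost without pig 2 (-1.29, adjusted p = 0.0750), without pig 3 (-1.29, 0.0999) or only its 24 h array (-1.30, 0.0566), without the block for pig (-1.39, 0.805), with pig as a random block (0.321) and with the 6 arrays alone (0.187). Over all alternatives the adjusted p ran from 5.64e-04 to 0.805.

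Resident macrophages of muscle make the complement protein C1q and carry the haemoglobin scavenger receptor CD163 and the complement receptor VSIG4. Genes of this kind make up the densest group among the lowest. C1QC, a chain of C1q, had log2 levels of 6.77, 6.25 and 5.81 at 24 h and 7.74, 7.21 and 8.77 at 20 min. CD163 had 6.98, 6.60 and 5.59 at 24 h, with differences from the 20 min arrays of -0.59, -0.87 and -2.41. VSIG4 had 6.48, 6.05 and 5.74 at 24 h and 6.95, 6.85 and 8.03 at 20 min. In each of them the 24 h arrays lay below the 20 min arrays without overlap, which 6.02% of all genes did. They were picked by their change, so this is a description. Pig 3 was both the lowest at 24 h and the highest at 20 min. The mean change was -1.63 ± 1.15 for C1QC, -1.29 ± 0.98 for CD163, -1.19 ± 0.97 for VSIG4 and -1.01 ± 0.80 for C1QA (SD over 3 pigs), with limma adjusted p between 0.193 and 0.210, and none passed. In pigs 1 and 2 the C1QC difference was -0.97 and -0.96, against -2.96 in pig 3. Without the 20 min array of pig 3, C1QC passed at -1.03 (limma adjusted p = 0.0189). The dimmer probe set of CD163 went the other way, at 0.59 ± 0.19. Of the dimmer ones of VSIG4, one had 0.00 ± 0.15, and the other had -0.38 ± 0.54 and was again lowest in pig 3.

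The complement regulator C4BPA and the chemokine CCL24, which draws eosinophils, showed the same pattern over the pigs. C4BPA had log2 levels of 8.78, 7.71 and 7.09 at 24 h and 9.34, 8.84 and 10.86 at 20 min, a mean change of -1.82 ± 1.72. CCL24 had 5.91, 5.66 and 5.20 at 24 h and 6.36, 6.95 and 7.80 at 20 min, a mean change of -1.45 ± 1.08. Neither overlapped, and the spread between pigs was as wide as the mean change for C4BPA. Beside these, FCGR2B, an inhibitory Fc receptor, lay beyond 2-fold at -1.01 ± 0.78; it was noticed after the values were seen.

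Most of the difference of these genes lay between 6 h and 24 h. At 20 min, 2 h, 6 h and 24 h the mean level of C1QC was 7.91, 7.64, 7.76 and 6.28, and that of CD163 was 7.68, 7.41, 7.50 and 6.39. Between 24 h and 6 h the log2 difference was -1.49 for C1QC, -1.11 for CD163, -1.09 for VSIG4, -1.07 for C1QA and -1.63 for C4BPA, while between 6 h and 20 min it was -0.14, -0.18, -0.10, 0.06 and -0.19. These small means averaged opposite pigs. In C1QC, CD163, VSIG4, C1QA and C4BPA pigs 1 and 2 were higher at 6 h than at 20 min, and pig 3 was lower. CCL24 differed in pig 2, with 6.95 at 20 min and 6.55 at 6 h. C1QC had 7.74, 7.21 and 8.77 at 20 min and 8.16, 7.63 and 7.51 at 6 h in pigs 1, 2 and 3. The intervals share the 6 h arrays, so their values are given side by side only. Of the 12 lowest genes 6 had all 3 arrays of 24 h below all 9 earlier arrays, which 0.517% of genes did: C1QC, C1QA, VSIG4, C4BPA, CCL24 and LOC100624077. The 12 genes were picked by their change, so the share of all genes is no test of them. For 24 h against 6 h, 0 of 23999 probe sets passed in limma (0%), with 911 lower (3.8%) and 1027 higher (4.28%) at unadjusted p under 0.05.

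Across 21 macrophage and leukocyte markers on the array of 28 listed, members were found on both sides. The median log2 change was -0.25, against -0.01 over all genes, and was -0.16, 0.04 and -0.90 in pigs 1, 2 and 3. It was -0.03 with pig 3 left out, -0.09 with only the 20 min array of that pig left out and -0.16 with only the 24 h array left out. It was -0.52 with pig 2 left out and -0.47 without the dimmest 40% of probe sets. In 3 of 3 pigs 9 were lower, against 21.1% of all genes, and 6 were higher, against 16.3%. At 5 the groups did not overlap with 24 h lower (6.02% of all genes) and at 2 with 24 h higher (6.18%). Of the 21, 10 were lower at unadjusted p under 0.05, against 8.71%, and 2 higher, against 6.28%. In pigs 1 and 2 alone 9 were lower in both, against 29.9% of genes, and 8 higher in both, against 24.4%. The mannose receptor MRC1 (-0.78 ± 1.03), the leukocyte tetraspanin CD53 (mean level 4.99 at 24 h and 5.99 at 20 min) and the lysosomal protease CTSS (-0.45 ± 0.73) were on the low side. Chosen after their values were seen, CD14, a lipopolysaccharide receptor of monocytes, had 0.22 ± 0.10, the scavenger receptor MARCO 0.18 ± 0.05, and the T cell genes CD3E and CD2 0.17 ± 0.10 and 0.26 ± 0.22. From 6 h to 24 h, 13 of the 21 were lower in 3 of 3 pigs (20.4% of genes), 4 were higher (14.4%), and 9 were lower at unadjusted p under 0.05 (3.86%). From 20 min to 6 h the list median was 0.17, 0.24 and -0.42 in pigs 1, 2 and 3. The mean level of the 21 genes ran from 5.52 to 6.00 over the 24 h arrays and from 5.94 to 6.47 over the 20 min arrays. In bulk tissue, fewer cells of a type and less RNA per cell cannot be told apart.

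**Figure D3:**
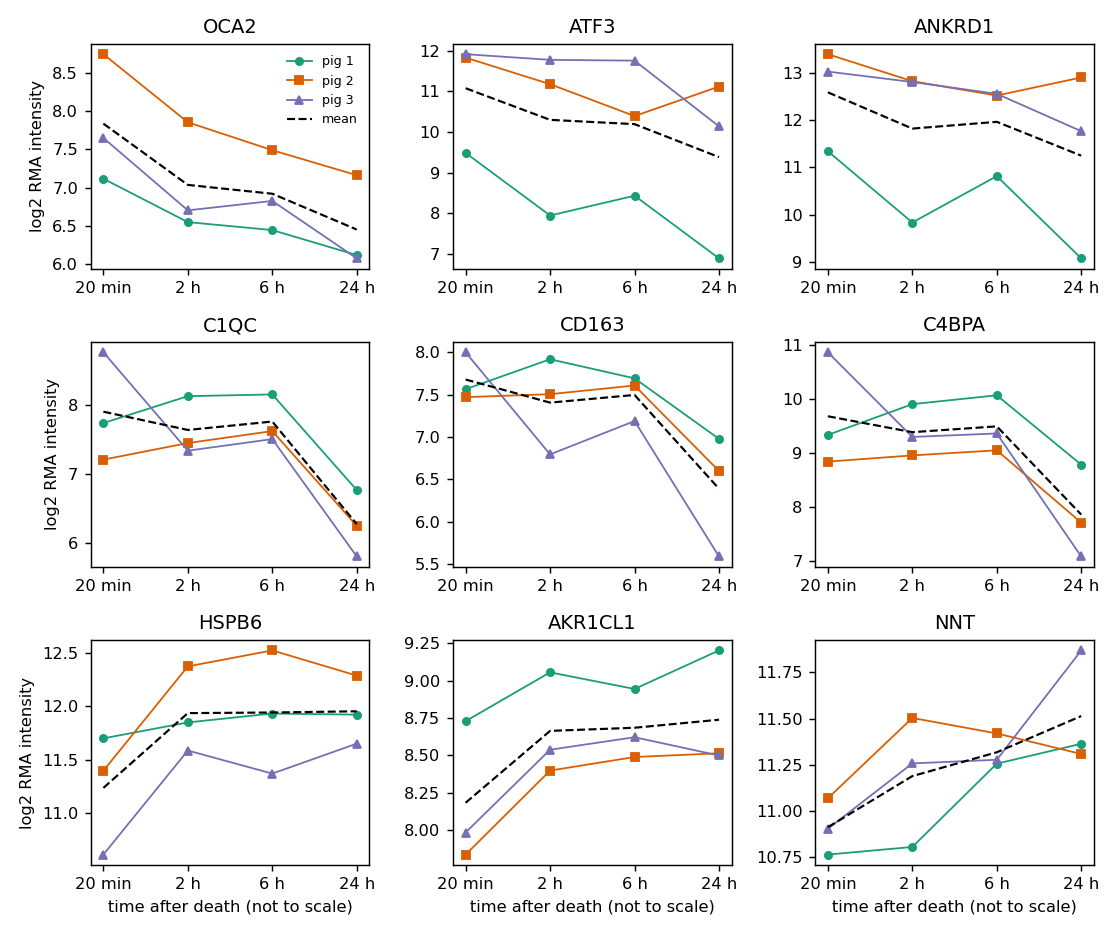
Log2 level of 9 genes (y axes, scaled to each gene) at 20 min, 2 h, 6 h and 24 h after death (x axis, not to scale), 1 line per pig and a dashed line for the mean. OCA2 has a lower mean at each later time, the means of C1QC, CD163 and C4BPA at 24 h lie below those of the earlier times, and the means of HSPB6 and AKR1CL1 at 2 h already lie near those at 24 h.

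Immediate early genes encode transcription factors that cells induce within minutes of a stimulus, from short-lived mRNAs. ATF3, a stress-induced factor of the ATF family, had log2 levels of 6.90, 11.12 and 10.14 at 24 h and 9.49, 11.83 and 11.92 at 20 min. FOS, a subunit of the AP-1 factor, had 7.72, 12.53 and 11.27 at 24 h and 8.78, 12.74 and 12.51 at 20 min. Pig 1 had far lower levels of both than the other pigs at both times, so that the groups overlapped although every pig was lower at 24 h. The mean change was -1.69 ± 0.94 for ATF3 and -0.84 ± 0.55 for FOS (limma adjusted p = 0.193 each). The growth regulator MYC had -0.97 ± 0.75, the nuclear receptor NR4A3 -0.91 ± 0.99, the antiproliferative BTG2 -0.69 ± 0.56 and the AP-1 partner JUN -0.33 ± 0.07.

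Of 19 such genes on the array 11 were lower in 3 of 3 pigs (21.1% of all genes) and 0 higher (16.3%), and 12 were lower at unadjusted p under 0.05 (8.71%) and 0 higher (6.28%). At 1 of 19 the groups did not overlap, a share near the 6.02% of all genes. The list median was -0.33, and -0.27, -0.13 and -0.83 in pigs 1, 2 and 3; without pig 3 it was -0.25. By interval, the median was -0.23 for 6 h minus 20 min, with 5 genes lower at unadjusted p under 0.05 (3.99% of genes), and -0.10 for 24 h minus 6 h, with 1. For 6 h against 20 min 0 probe sets passed in limma (0%), with 1090 lower (4.54%) and 1029 higher (4.29%) at unadjusted p under 0.05.

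Inhibitors that such stimuli induce in turn were also on the low side. The MAP kinase phosphatase DUSP1 had a change of -0.62 ± 0.63 and the phosphatase DUSP14 -0.41 ± 0.20. NFKBIA, which holds NF-κB in the cytoplasm, had log2 levels of 8.75, 8.91 and 8.36 at 24 h and 9.21, 9.14 and 9.09 at 20 min, a change of -0.47 ± 0.25 with no overlap. In 3 of 3 pigs 21.1% of all genes were lower and 16.3% higher. Of 7 MAPK phosphatases and feedback inhibitors on the array 3 were lower in 3 of 3 pigs and 0 higher. Their median of -0.40 was 0.06 with pig 3 left out, -0.06 and -0.09 with only its 20 min or its 24 h array left out, and -0.04 with all their probe sets. SGK1, a kinase of the stress and glucocorticoid response, had -0.07 ± 0.36.

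Stretch, growth and differentiation genes of the fibre gave single members rather than a list. ANKRD1, a stretch-responsive protein of the sarcomere, had log2 levels of 9.08, 12.90 and 11.76 at 24 h and 11.34, 13.39 and 13.02 at 20 min. Its change was -1.34 ± 0.89, and -1.45 ± 0.71 at its dimmer probe set. XIRP1, an actin-binding protein of fibre repair, had -0.50 ± 0.42. MSTN, which encodes myostatin, had 5.41, 5.69 and 5.71 at 24 h and 5.96, 6.47 and 7.48 at 20 min. Its groups did not overlap, its change was -1.03 ± 0.65, and -0.89 ± 0.37 at its other probe set. The myogenic factor MYF6 had -0.50 ± 0.42 and MEF2A, another regulator of muscle genes, -0.31 ± 0.07 without overlap. Of 13 myogenic regulators 4 were lower in 3 of 3 pigs and 1 higher, against 21.1% and 16.3% of all genes. Among 27 growth factors and secreted muscle factors 3 were lower and 3 higher in 3 of 3 pigs, against the same shares. HBEGF, an EGF-family ligand, had -0.67 ± 0.37, and VEGFB had 0.35 ± 0.45 with pig 1 lower at 24 h. The TGF-beta repressor TGIF1 had -0.59 ± 0.23, the growth arrest gene GADD45A -0.67 ± 0.20 without overlap, and the TWEAK receptor TNFRSF12A -0.52 ± 0.40. DDIT4L, an inhibitor of mTOR signalling, was -0.42 ± 0.21, of which -0.45 lay between 6 h and 24 h.

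A few further genes stood out downward. TIAM2, an activator of the GTPase Rac, had log2 levels of 6.35, 7.62 and 7.38 at 24 h and 7.28, 8.55 and 8.59 at 20 min. Its change of -1.02 ± 0.16 was close to equal in the 3 pigs, of which -0.52 stood at 6 h, and its groups overlapped because pig 1 was lower throughout. The glycerol and water channel AQP3 had -0.94 ± 0.90, with -0.02, -0.99 and -1.81 in pigs 1, 2 and 3. UCHL1, a deubiquitinating enzyme, had -0.63 ± 0.19, and the lysosomal protease LGMN -0.35 ± 0.09, nearly all of it after 6 h (-0.32). The largest change of all belonged to a probe set without a symbol, singled out after its values were seen. It had log2 levels of 3.18, 3.51 and 3.34 at 24 h and 3.79, 8.07 and 9.48 at 20 min, a change of -3.77 ± 2.85 that pigs 2 and 3 carried. Its adjusted p in limma was 0.193, and without pig 1 it passed (-5.35, adjusted p = 0.0324).

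The differences of the genes higher at 24 h were smaller in size. HSPB6, a small heat shock protein of muscle, had log2 levels of 11.92, 12.29 and 11.65 at 24 h and 11.70, 11.40 and 10.62 at 20 min. The groups overlapped by 1 array, the change was 0.71 ± 0.43, and 0.70 of it stood at 6 h. A dimmer probe set of HSPB6 had 0.49 ± 0.73. AKR1CL1, an aldo-keto reductase, had 9.20, 8.51 and 8.50 at 24 h and 8.73, 7.84 and 7.99 at 20 min, and its change of 0.55 ± 0.11 was much alike in the 3 pigs (limma adjusted p = 0.176). Its dimmer probe sets had 0.16 and 0.11.

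NNT, the proton-pumping transhydrogenase that makes NADPH in mitochondria, had log2 levels of 11.36, 11.31 and 11.87 at 24 h and 10.76, 11.07 and 10.90 at 20 min. The groups did not overlap and the change was 0.60 ± 0.36. ME3, the mitochondrial malic enzyme, had 0.47 ± 0.39 and PTPMT1, a mitochondrial phosphatase of cardiolipin synthesis, 0.45 ± 0.29. The other 7 of the 12 highest were ALB, SATB1, FAM3D, TEKT1, MAT1A, DPP4 and SMG9, at 0.45 to 0.52. ALB, at a mean level of 4.63 at 24 h and 4.11 at 20 min, was among the dimmest, and signal over background was not used here. Of the 12 highest 9 did not overlap (6.18% of genes), and the 24 h arrays of 2, MAT1A and SMG9, lay above all 9 earlier ones (0.798%). For SMG9 the margin was narrow, with the lowest 24 h array at 6.628 and the highest earlier one at 6.624. The dimmer probe set of SMG9 had 0.10 ± 0.40 and was lower at 24 h in pigs 1 and 2. The 12 highest genes too were picked by their change, so the shares are no test of them.

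Genes of oxidative metabolism, which feed electrons into the respiratory chain and make ATP from them, were on the high side. All 37 citrate cycle and fatty acid oxidation genes on the array had a higher mean at 24 h, with 22 higher in 3 of 3 pigs (16.3% of all genes) and 0 lower, and 20 higher at unadjusted p under 0.05 (6.28%). All 40 nuclear-encoded oxidative phosphorylation genes had a higher mean, with 22 higher in 3 of 3 pigs and 0 lower, and 13 higher at unadjusted p under 0.05, against the same shares of 16.3% and 6.28%. The medians were 0.21 and 0.16. None passed after adjustment over all probe sets. The lists were chosen with these results known, and the counts describe them.

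ACSL1, which activates fatty acids with coenzyme A, had log2 levels of 12.92, 12.62 and 12.85 at 24 h and 12.57, 12.39 and 12.26 at 20 min. The groups did not overlap, and the change was 0.39 ± 0.19. HADHA, a subunit of the trifunctional enzyme of beta oxidation, had 0.32 ± 0.17, ECI1, an isomerase of the same pathway, 0.39 ± 0.25, and the citrate cycle enzyme IDH2 0.31 ± 0.17. In the respiratory chain NDUFS7 of complex I had 0.33 ± 0.24, SDHA of complex II 0.24 ± 0.14 and UQCRB of complex III 0.23 ± 0.17. COX6C of complex IV had 13.26, 13.26 and 13.24 at 24 h and 13.16, 13.17 and 13.13 at 20 min, a change of 0.10 ± 0.01 that was small and much alike in the 3 pigs. Citrate synthase (CS) had 0.11 ± 0.17 and was lower in pig 1.

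The difference stood at 6 h, and most of it already at 2 h. The median for 2 h minus 20 min was 0.17 for citrate cycle and fatty acid oxidation genes and 0.11 for oxidative phosphorylation. For citrate cycle and fatty acid oxidation genes the median was 0.19 for 6 h minus 20 min, with 17 genes higher at unadjusted p under 0.05 (4.82% of genes), and 0.01 for 24 h minus 6 h, with 0. For oxidative phosphorylation it was 0.15, with 13 genes, and 0.00, with 0. In pigs 1, 2 and 3 the 6 h minus 20 min medians were 0.04, 0.25 and 0.30 for the first list. They were 0.01, 0.18 and 0.27 for the second. By pig the 24 h minus 20 min medians were 0.07, 0.23 and 0.29 for the first list and 0.03, 0.17 and 0.28 for the second in pigs 1, 2 and 3; without pig 3 they were 0.17 and 0.10. The fibroblast and extracellular matrix medians were 0.06, 0.09 and -0.42 in these pigs (21 genes; mean level 8.29 to 8.50 at 24 h and 8.20 to 8.81 at 20 min). As RMA fixes the distribution of each array, a list can stand higher where others stand lower, and the part of other cell types in these values was not tested.

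Genes beside this pathway partly shared the direction. Of 22 amino acid and glutamine genes 5 were higher and 3 lower in 3 of 3 pigs. Among all genes 16.3% were higher and 21.1% lower in 3 of 3 pigs, the shares to set beside each such count. The transaminases that link amino acids to the citrate cycle had 0.37 ± 0.17 for GPT, 0.36 ± 0.38 for GOT1 and 0.20 ± 0.12 for GOT2, and asparagine synthetase (ASNS) had -0.34 ± 0.21. Of 18 genes of fuel switching and insulin response 4 were higher and 0 lower. The kinase AKT1 had 0.22 ± 0.12 without overlap, while PDK4, which closes off pyruvate oxidation, had 0.03 ± 0.09. PPARGC1A, a master regulator of mitochondrial genes, had 11.46, 10.48 and 10.81 at 24 h and 12.53, 10.77 and 10.43 at 20 min; pigs 1 and 2 were lower, pig 3 was higher, and the change was -0.32 ± 0.72. Mitochondrial import and dynamics, with 24 genes, had a median of 0.05, 3 genes higher and 2 lower in 3 of 3 pigs.

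Channels of the fibre membrane and vessel genes gave values on both sides. Of 10 channels, pumps and transporters 4 were higher and 2 lower in 3 of 3 pigs, against 16.3% and 21.1% of all genes. Their median was 0.11. AQP1, the water channel of endothelium, had log2 levels of 10.61, 10.67 and 10.47 at 24 h and 10.39, 10.26 and 9.78 at 20 min, a change of 0.44 ± 0.24 with no overlap. ATP1B1, a subunit of the sodium pump, had 0.24 ± 0.05, and ATP1B4 of the same family -0.30 ± 0.24. Smoothelin (SMTN), of contractile smooth muscle, had 0.39 ± 0.21, the pericyte regulator RGS5 0.31 ± 0.21 and the endothelial co-receptor ENG 0.32 ± 0.20. The smooth muscle and pericyte median was 0.05, 0.29 and -0.19 in pigs 1, 2 and 3, and the endothelial one 0.05, 0.21 and -0.14, so that neither list kept 1 direction.

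Genes of the pathways that hold up ATP without oxygen had small differences on both sides. Of 20 genes of adenine nucleotide and phosphocreatine turnover 8 were lower and 3 higher in 3 of 3 pigs, at a median of -0.04. Among all genes 21.1% were lower and 16.3% higher in 3 of 3 pigs. PRKAA2, the catalytic subunit of the energy sensor AMPK in muscle, had log2 levels of 10.22, 10.24 and 10.29 at 24 h and 10.47, 10.55 and 10.72 at 20 min. All 3 arrays of 24 h lay below those of 20 min, and the change was -0.33 ± 0.09. AMPD1, the AMP deaminase of muscle that makes IMP, had -0.26 ± 0.19, ADSSL1, which starts the way back from IMP to AMP, -0.25 ± 0.16, and GAMT, the last enzyme of creatine synthesis, -0.22 ± 0.06. Creatine kinase (CKM) had -0.01 ± 0.02. Of 19 glycolysis and glycogen breakdown genes 7 were lower and 0 higher in 3 of 3 pigs, against 21.1% and 16.3%, at a median of -0.06. In this list 1 was lower and 1 higher at unadjusted p under 0.05, against 8.71% and 6.28% of all genes. The largest change was that of glycogen synthase (GYS1), 0.29 ± 0.28, noticed after the values were seen. GYS1 serves the making of glycogen, although the list is named for its breakdown. The glycogen primer GYG1 had -0.17 ± 0.05 and phosphoglycerate mutase PGAM2 -0.16 ± 0.06, while glycogen phosphorylase (PYGM) had -0.02 ± 0.04 and GAPDH -0.03 ± 0.03.

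Ribosomal protein and chaperone genes differed by small amounts. In 3 of 3 pigs 35 of 59 genes of cytosolic ribosomal proteins were lower (21.1% of all genes) and 0 higher, but only 3 were lower at unadjusted p under 0.05, a smaller share than the 8.71% of all genes. The list medians were -0.06, -0.08 and -0.11 in pigs 1, 2 and 3. RPL15 had 12.69, 12.71 and 12.72 at 24 h and 12.84, 12.85 and 12.93 at 20 min, a change of -0.17 ± 0.04. Its 24 h arrays lay below all 9 earlier arrays (0.517% of genes), but narrowly. The highest 24 h array of RPL15 was at 12.720 and the lowest earlier one at 12.728. RPS18 had -0.18 ± 0.02, whereas RPS20 had 0.00 ± 0.01. Of 28 heat shock proteins and cochaperones 11 were lower and 2 higher in 3 of 3 pigs, at a median of -0.09. The shares of all genes were 21.1% and 16.3%. HSPA2 had -0.33 ± 0.15 and the cochaperones HSPH1 and DNAJA1 -0.39 ± 0.14 and -0.29 ± 0.15, against 0.71 for HSPB6. Of 25 RNA-binding proteins, among them genes that cooling induces in cultured cells, 3 were lower and 3 higher, against 21.1% and 16.3%. The cold-induced RBM3 had 7.63, 8.07 and 7.18 at 24 h and 7.55, 7.34 and 7.17 at 20 min, a change of 0.28 ± 0.40 that pig 2 carried.

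The lists not yet described had members on both sides. In 3 of 3 pigs 21.1% of all genes were lower and 16.3% higher, the shares to set beside each count here. Of 25 ubiquitin ligases, autophagy genes and proteases 6 were lower and 2 higher in 3 of 3 pigs, and the atrophy ligase FBXO32 had 0.22 ± 0.07. Of 20 genes of cell cycle arrest and the p53 response 8 were lower and 3 higher, of 14 genes of the TGF-beta, BMP and Notch response 5 and 1, and of 22 interferon and antigen presentation genes 4 and 4. Among other cell types, 4 erythroid markers had 1 lower and 1 higher, 6 nerve and junction markers 1 and 0, and 21 fibroblast and matrix markers 1 and 1. Of 19 sarcomere scaffold genes 3 were lower and 6 higher, with MYBPC1, a slow-fibre myosin-binding protein, at 0.25 ± 0.20.

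Adipocyte markers were split. Of 17 on the array 5 were higher and 0 lower in 3 of 3 pigs, against 16.3% and 21.1% of all genes. Yet 4 were lower and 2 higher at unadjusted p under 0.05, against 8.71% and 6.28%, and the median was 0.02. On the high side, the triglyceride lipase PNPLA2 had 0.45 ± 0.30 and lipoprotein lipase (LPL) 0.43 ± 0.38. The largest changes were on the low side. Chosen after their values were seen, the fat cell hormone adiponectin (ADIPOQ) had -0.99 ± 1.05, the fatty acid elongase ELOVL6 -0.61 ± 0.72 and the lipid droplet protein CIDEA -0.41 ± 0.50. All 3 were higher in pig 1 and lower in pigs 2 and 3.

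**Figure D4:**
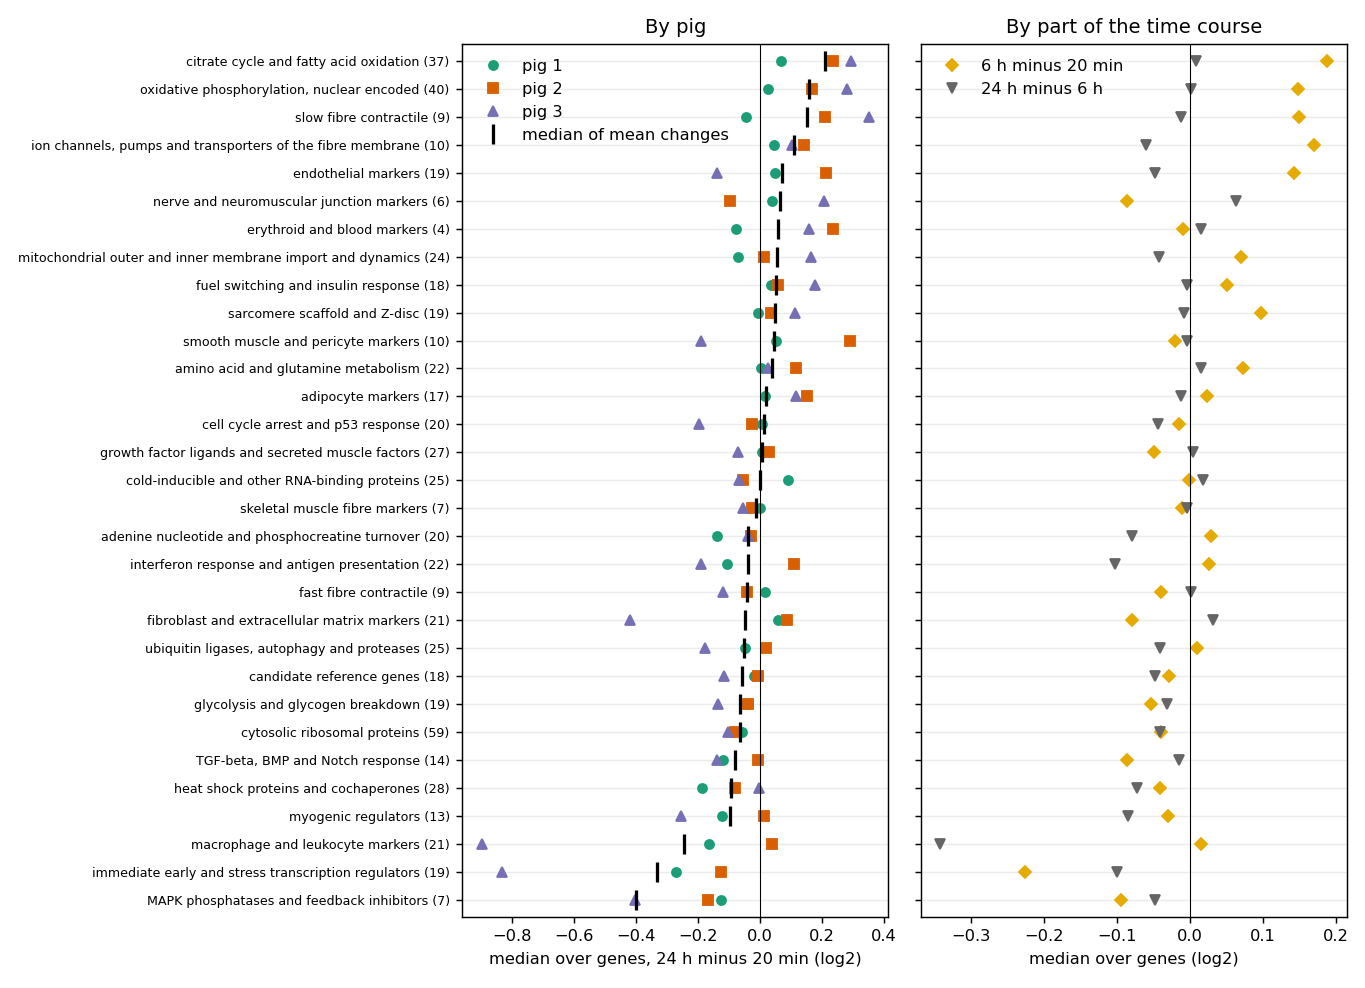
Median log2 change over the genes of 31 lists (numbers of genes in parentheses), on the left for 24 h minus 20 min in each pig (symbols) and for the mean changes (bars), on the right for the 6 h minus 20 min and 24 h minus 6 h intervals, which share the 6 h arrays. The macrophage list sits at -0.34 after 6 h and 0.02 before, and the citrate cycle list at 0.01 after and 0.19 before; the x axes differ.

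Contractile genes had small changes in the fast-fibre list and wider ones in the slow-fibre list. For 9 fast-fibre genes the changes lay between -0.10 and 0.04. At 4 of them the groups did not overlap with 24 h lower and at 1 with 24 h higher, against 6.02% and 6.18% of all genes, and 0 passed an unadjusted p of 0.05 in either direction. The tropomyosin gene TPM1 had a change of -0.10 ± 0.04, and its 24 h arrays lay below all 9 earlier ones (0.517% of genes). The margin was narrow, with the highest 24 h array at 14.035 and the lowest earlier one at 14.043. Of 9 slow-fibre genes 4 were higher and 0 lower at unadjusted p under 0.05, against 6.28% and 8.71% of all genes. In 3 of 3 pigs only 1 was higher and 0 lower, against 16.3% and 21.1%, and the groups overlapped at all 9. The changes ran from -0.23 to 0.39. The slow and cardiac calcium pump ATP2A2 had 0.22 ± 0.20 and the slow myosin MYH7 0.14 ± 0.15. The slow-fibre median of 0.15 was -0.04, 0.21 and 0.35 in pigs 1, 2 and 3, and 0.065 with pig 3 left out or 0.077 with only its 20 min array left out. The titin gene TTN had 14.19, 14.19 and 14.16 at 24 h and 14.12, 14.09 and 14.05 at 20 min, a change of 0.09 ± 0.02. For 7 fibre markers the changes lay between -0.07 and 0.14.

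Among the brightest 10% of genes the 5 with the smallest changes in any pig were RPS20, PCMTD1, ACTG1, CKM and PSMD2. ACTG1 had 14.70, 14.73 and 14.68 at 24 h and 14.69, 14.71 and 14.67 at 20 min. Of 18 genes in use as references for quantitative PCR 5 were lower and 3 higher in 3 of 3 pigs, against 21.1% and 16.3% of all genes. Among these references GUSB had -0.36 ± 0.29 and YWHAZ 0.29 ± 0.21, the widest among those named.

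The changes of the 3 pigs were weakly related across probe sets. Over 23999 probe sets the 24 h minus 20 min changes correlated with r = 0.042 between pigs 1 and 2, 0.130 between pigs 1 and 3 and 0.339 between pigs 2 and 3. Probe sets are not independent replicates, and the changes of different pigs share no array. The same sign was seen at 52.0%, 55.0% and 62.0% of probe sets. In pig 3, 199 probe sets were lower by over 2-fold and 32 higher, against 24 and 14 in pig 1 and 19 and 6 in pig 2. With 6 h in place of 20 min, 52 probe sets were lower by over 2-fold in pig 3, against 21 in pig 1 and 8 in pig 2. The genes with the widest range between pigs were C4BPA, LYVE1, HSPA6, CD53 and LOC100624077. LYVE1, a hyaluronan receptor of lymphatic vessels and some macrophages, had log2 levels of 6.21, 5.66 and 5.37 at 24 h and 5.21, 5.50 and 7.55 at 20 min. Pigs 1 and 2 were higher at 24 h, by 1.00 and 0.16, and pig 3 was lower, with a change of -2.18. The dimmer probe sets of LYVE1 did not share the rise in pig 1, with changes of 0.05 and -0.23. In pig 3 they had -1.51 and -0.13.

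**Figure D5:**
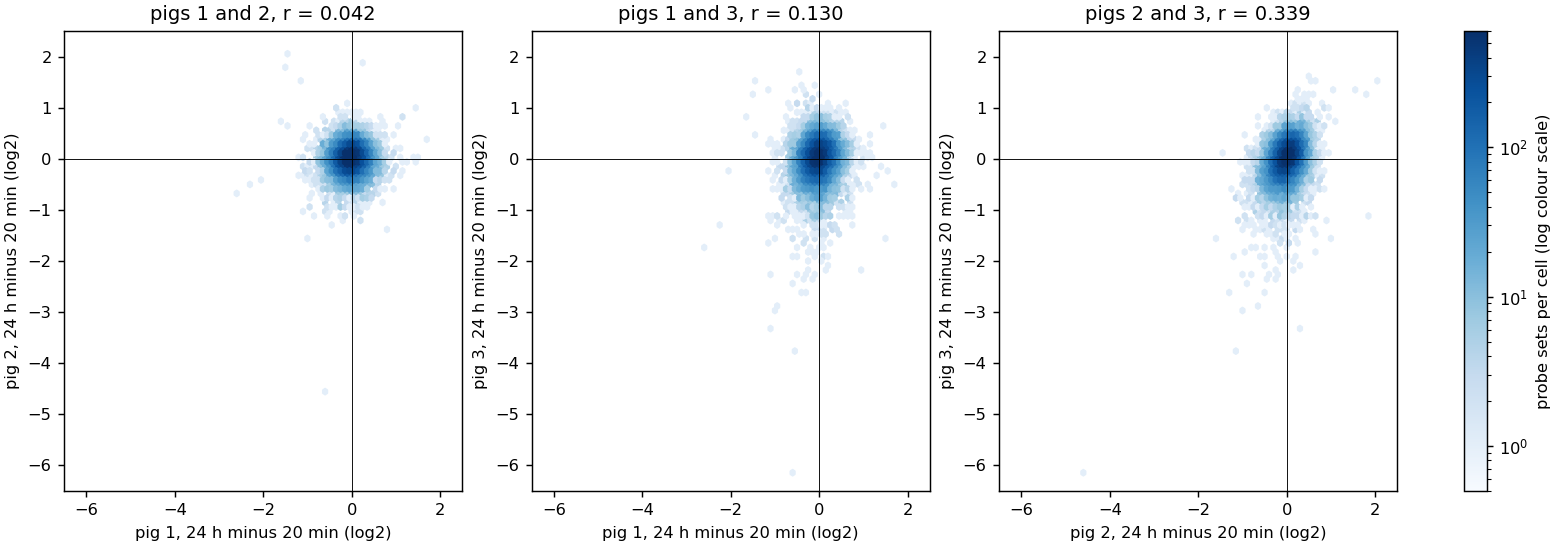
Log2 change at 24 h minus 20 min in 1 pig against that in another for 23999 probe sets, with darker cells holding more probe sets (log colour scale). The clouds are round for pigs 1 and 2 (r = 0.042) and tilted for pigs 2 and 3 (r = 0.339), and pig 3 has a tail of low values; the single point at -6.13 in pig 3 is the unnamed probe set.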

How the data were processed

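Muscle RNA of 3 pigs at 4 times was measured on Affymetrix arrays. The authors deposited log2 intensity values made by RMA with affy, per the submitters' processing notes, which give no versions here. RMA fits all arrays together and equalises their distributions, so only relative differences are left; precision is limited by the number of arrays.

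After 124 control probe sets were left out, 23999 were tested with limma 3.58.1 in R 4.3.3 (statmod 1.5.0 for the random block). The fit used all 12 arrays with a term for each time and pig, 6 residual and 5.67 prior degrees of freedom, and Benjamini-Hochberg adjustment over all probe sets; the threshold was an adjusted p under 0.05. The fit was tested on simulated data. Pig numbers in the titles mark the same animal: deviations from the time means correlated with r between 0.409 and 0.656 within a pig and between -0.456 and -0.039 across pigs. The deviations of the pigs cancel out at each time, so negative values across pigs are built in and add no evidence. A standard deviation is over the pigs' own differences.

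Gene names came from the platform annotation of 2016 (10099 probe sets with 1 symbol, 198 with several, 13826 with none; 9989 matched RefSeq by gene ID). It was not checked against probe sequences. Each of 6765 genes was described by its brightest probe set. Named genes were those that passed, the 12 lowest and 12 highest with 1 sign in 3 pigs, for each of 31 lists the 6 largest changes of 1 sign and the 3 highest levels, the 5 steadiest of the brightest 10% and the 5 with the widest range between pigs. Members and lists were chosen with earlier results of these data known, so list counts and medians are descriptions. Alternatives were no block, a random block, the 6 arrays alone, no dim probe sets, cyclic loess, a robust prior, array weights, all probe sets and arrays or pigs left out. No sequences were used.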

Additional observations from a re-analysis of the deposited data

How the results depend on the processing

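The number of probe sets passing, 1 in the paired fit, was 0 with no replicate block, 0 with a random block for pig and 0 with the 6 arrays alone, and 0 to 2 when a pig or an array of pig 3 was left out. With no replicate block, 580 probe sets were lower and 814 higher at unadjusted p under 0.05, against 1600 and 1538. Without the dimmest 40% of probe sets 1337 were lower and 937 higher. Fewer probe sets were tested in that setting, so its counts cannot be compared directly with 1600 and 1538. Leaving out a pig or an array of pig 3 gave 897 to 1513 lower and 784 to 1506 higher. OCA2 kept -1.39 with no block (limma adjusted p = 0.805), a random block (0.321) and the 6 arrays alone (0.187), and had -1.58 to -1.29 in the same leave-outs. It passed with cyclic loess (0.00544), without dim probe sets (0.00702), with a robust prior (5.64e-04) and with array weights (0.00109).

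Among list medians, the same leave-outs gave -0.42 to 0.064 for MAPK phosphatases and feedback inhibitors, -0.057 to 0.049 for growth factors, -0.11 to 0.030 for cell cycle arrest, -0.056 to 0.039 for adipocyte and -0.032 to 0.22 for erythroid markers. With all probe sets the first was -0.042 and fibre markers were -0.043. The cause of these shifts was not tested. OCA2, the 1 called result, kept its sign. Of 223 named genes 8 to 13 changed sign when a pig or an array of pig 3 was left out. With cyclic loess 4 did, and with array weights 4. The number of pigs limits what could pass, and signal over background was not used, so differences of dim probe sets carry no separate check.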
